A study of Homo sapiens and Mus musculus with 22 samples.

Results

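The comparison described here set U2OS cells with an ATG5 knockdown (ATG5 KD), mock-treated, against U2OS cells carrying the vector, also mock-treated. U2OS is a human osteosarcoma line. Each side was 1 deposited FPKM value per gene (fragments per kilobase of transcript, scaled to library size, so a level that allows for gene length). Per the labels each value stands for 2 replicates, and the spread between them is not given. A gene belonged to the comparison when its FPKM reached 1 in at least 1 of the 2 values, which held for 12490 of 23760 genes. With 1 value a side no test was possible, so every difference below describes these 2 values and has no p. Differences are log2 differences of FPKM + 1, ATG5 KD minus vector, and a gene is called higher or lower when the 2 values were at least 2-fold apart on that scale. The same 2 lines treated with 10 µM BIX-01294 (BIX, an inhibitor of the histone H3 lysine 9 methyltransferases EHMT1 and EHMT2) for 12 h gave a second pair of values. The series also held 2 libraries of mock-treated wild-type (WT) U2OS cells, in a table that was normalised separately. The characteristics of the mock samples read MOCK, while a general treatment note speaks of BIX, so the sample names were followed. Which vehicle, if any, the mock cells had is not stated in the labels. How ATG5 was knocked down, what the vector carried, and whether the lines were clones are likewise not stated.

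ATG5 is part of the machinery that builds autophagosomes, the double membranes that enclose cytoplasm and carry it to the lysosome. ATG12 is attached to ATG5 by the enzymes ATG7 and ATG10, and the conjugate, bound to ATG16L1, helps join LC3 and GABARAP proteins to membrane lipid. Cholesterol synthesis, the pathway that differed most as a group here, runs from acetyl-CoA through mevalonate, farnesyl diphosphate, squalene and lanosterol. Its genes share the transcription factor SREBP-2, which SCAP escorts from the endoplasmic reticulum when sterols are low and which INSIG proteins hold back when sterols are high.

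The summed FPKM was 485216 in the ATG5 KD column and 445281 in the vector column. A single entry, MIR6723, took 5.08% of the ATG5 KD sum and 3.86% of the vector sum and was left out with the other short non-coding RNA genes. Read depth is unknown, so no interval could be set on a level. Of 16 osteoblast markers, 10 were in the comparison. Of these 10, 8 were below 0 and 2 above, where 48% and 52% of all genes lay. Their median log2 difference was -0.23, against 0.011 over all genes. The collagen gene COL1A1 stood at 248 FPKM in ATG5 KD cells and 418 in vector cells, SPARC at 385 and 448, and the lineage factor RUNX2 at 10.5 and 18.1. Other markers of the list, SP7, IBSP, DLX5, COL1A2 and SOST, were below 0.2 FPKM in both values. Of 10 blood cell markers, 3 were in the comparison, with a summed level of 5.396 FPKM in ATG5 KD cells and 6.03 in vector cells. For 8 endothelial markers, 2 of which were in the comparison, the sums were 3.26 and 3.92. As in any bulk sample, fewer cells of a kind and less RNA per cell cannot be told apart.

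ATG5 mRNA was at 10.1 FPKM in ATG5 KD cells, against 11.3 in vector cells, a log2 difference of -0.16. With BIX the ATG5 KD value was the higher one (13.4 FPKM, against 12.3 in vector). In the separately normalised WT libraries ATG5 was at 13.5 and 16.5 FPKM. The mRNA level therefore showed no clear knockdown, and whether the protein was reduced was not measured in these files. Throughout, ATG5 KD names the samples by their label.

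The other genes of the autophagy machinery stood at nearly the same levels in both values. Of 34 core autophagy genes in the comparison, 17 were above 0 and 17 below, where 52% and 48% of all genes lay, none was 1.5-fold apart, and the median log2 difference was -0.0034, against 0.011 over all genes. The extremes were both ATG8 genes, whose proteins are joined to the membrane: GABARAPL1 at 42.8 FPKM in ATG5 KD cells and 53.7 in vector cells (-0.32), and GABARAPL2 at 66.4 and 55.03 (0.27). MAP1LC3B, which encodes the LC3B protein, was at 54.01 FPKM in ATG5 KD cells and 49.8 in vector cells. Among ATG5's direct partners, ATG12 was at 11.2 and 9.76 FPKM, and the joined locus ATG16L1,SCARNA5 at 7.42 and 6.04. The kinase gene ULK1, which starts autophagosome formation, was at 13.05 and 15.7. The 14 cargo receptor genes had a median of 0.036, and SQSTM1, which encodes the receptor p62, was at 66.3 FPKM in ATG5 KD cells and 64.2 in vector cells. Lysosomal genes leaned lower: 29 of 37 were below 0, with a median of -0.16, and none was 2-fold apart. Among them were the protease genes CTSD (80.7 FPKM in ATG5 KD cells, 120.1 in vector cells) and CTSB (164 and 240.4) and the glycosidase gene IDUA (3.22 and 6.15). The regulators of this gene set did not share a direction, with MITF at 7.05 and 4.08 FPKM and TFEB at 3.92 and 6.16.

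Over all 12490 genes, 62 (0.496%) were at least 2-fold higher in ATG5 KD cells and 56 (0.448%) at least 2-fold lower. Scaling both columns to the same sum made this split 43 and 79 and moved the median of all genes to -0.098. The SD of the log2 difference was 0.276 across genes. For scale, the 2 WT libraries gave an SD of 0.231 over 11187 genes and had 27 genes (0.241%) 2-fold apart, in either direction. The 2 values compared here were thus 2-fold apart for 118 genes (0.945%), more than a pair of WT libraries, although each of those was a single library. Of the 62 higher genes, 44 reached an FPKM of 5 in 1 of the values, as did 41 of the 56 lower genes.

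**Figure D1:**
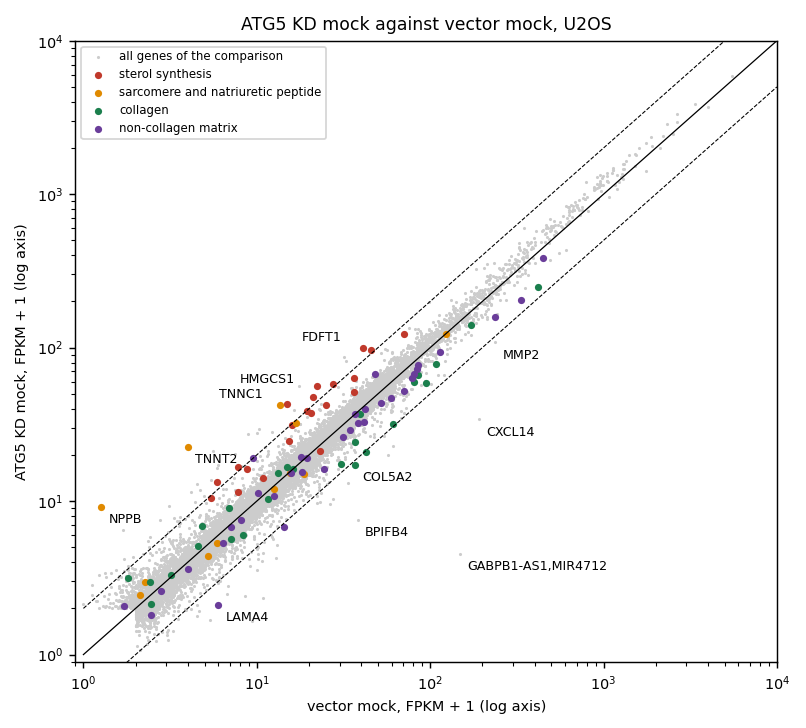
FPKM + 1 of every gene of the comparison in ATG5 KD mock cells (vertical, log axis) against vector mock cells (horizontal, log axis), with 4 gene lists in colour; the solid line marks equal values and the dashed lines 2-fold. Most sterol synthesis genes lie above the line and 17 of 25 collagen genes below it, while NPPB and TNNT2 lie far above and CXCL14 and BPIFB4 far below.

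Of 48 gene lists, sterol synthesis had the largest median. All 21 genes of the list were in the comparison, 20 were above 0, 17 were at least 1.5-fold higher and 8 at least 2-fold higher, with a median of 0.94, against 1.85% and 0.496% of all genes past those folds and a median of 0.011. The list was chosen with earlier results of these data known, so its count is a description. The first steps make mevalonate. ACAT2, which joins acetyl-CoA units, was at 41.1 FPKM in ATG5 KD cells, against 24.1 in vector cells (0.75). HMGCS1, the HMG-CoA synthase, was at 41.6 FPKM in ATG5 KD cells and 13.97 in vector cells (1.51), the largest difference on the list. The kinases and the decarboxylase that turn mevalonate into isoprene units followed. MVK was at 12.3 FPKM in ATG5 KD cells and 4.92 in vector cells (1.17), PMVK at 13.1 and 9.90 (0.37) and MVD at 30.4 and 14.96 (0.97). IDI1, an isomerase of those units, was at 15.6 and 6.80 (1.09), and FDPS, which assembles farnesyl diphosphate, at 121 and 69.6 (0.79). All 8 genes of the mevalonate steps were above 0, and 3 of them, HMGCS1, MVK and IDI1, were 2-fold higher.

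The steps committed to sterols showed the same direction. FDFT1, squalene synthase, was at 98.4 FPKM in ATG5 KD cells, against 39.8 in vector cells (1.28). SQLE, the epoxidase that is a second control point of the pathway, was at 55.6 FPKM, against 21.2 (1.35), and LSS, which closes the rings to form lanosterol, at 23.6 and 14.4 (0.67). From lanosterol to cholesterol, 9 of 10 genes were above 0 and 3 were 2-fold higher, with a median of 0.90. Among these 3 were the demethylase CYP51A1 (56.9 FPKM in ATG5 KD cells, 26.5 in vector cells) and the oxidase MSMO1 (46.8 and 20.2). DHCR7, which carries out the last reduction on another branch, was at 37.8 and 18.5 FPKM (0.99), and NSDHL at 36.4 and 19.6 (0.86). HSD17B7 (0.94), C14orf1 (0.80), SC5D (0.56) and the joined locus EBP,PORCN (0.49) had positive differences of less than 2-fold. The only member below 0 was the joined locus TM7SF2,VPS51, at 20.3 FPKM in ATG5 KD cells and 22.2 in vector cells. It adds a gene outside the pathway to TM7SF2, a sterol reductase whose step another enzyme can also perform.

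**Figure D2:**
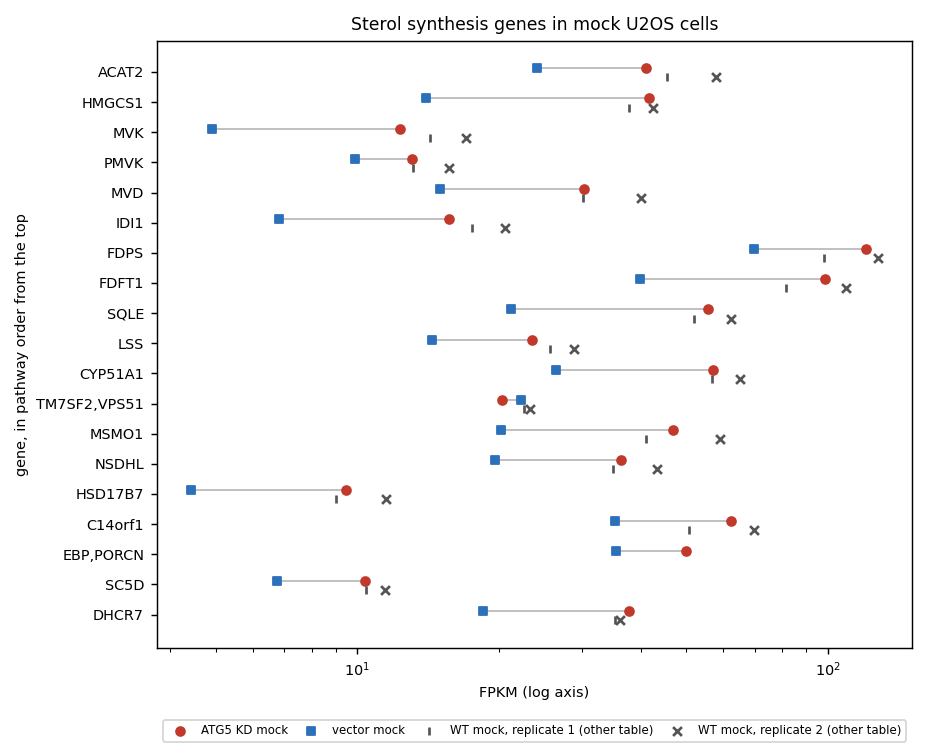
FPKM (horizontal, log axis) of 19 sterol synthesis genes in pathway order in ATG5 KD mock cells (circles), vector mock cells (squares) and the 2 WT mock libraries of the separately normalised table (bars and crosses; EBP,PORCN has no WT value). The ATG5 KD value lies right of the vector value for 18 of these 19 genes, and the WT libraries lie near the ATG5 KD value.

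The WT libraries resembled the ATG5 KD value in this pathway. For 19 of the 20 sterol synthesis genes with a WT value, the WT mean lay nearer to ATG5 KD than to vector, against 65.6% of all 11553 genes with a WT value. HMGCS1 was at 37.9 and 42.5 FPKM in the WT libraries, and FDFT1 at 81.6 and 109. Measured against WT, the vector value was therefore the low one for these genes, with the limit that levels were set across tables normalised separately.

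Promoters of sterol genes often pair a sterol regulatory element, bound by SREBP, with a CCAAT box, bound by NF-Y, which works with SREBP. RefSeq windows of 300 bases (250 before and 50 after the start of transcription, build GRCh38.p14) were found for 16 of the 21 sterol synthesis genes, and both strands were searched. A gene with several windows was counted when any of them held the motif. CCAAT occurred for 14 of these 16 genes (87.5%) and for 42.7% of the 10779 genes of the comparison with a window. It was in 34.6% of all 35116 windows. A core of the sterol regulatory element, TCACNCCAC, occurred in none of the 16, in 162 of the 10779 genes and in 1.13% of all windows, and its absence from a window says only that these letters are not there. Printed here are windows of the synthesis genes HMGCS1 and MSMO1, of INSIG1, a controller that was 2-fold higher, and of SREBF2, whose printed window held both motifs. Where a gene had several windows, the one with the most matches was printed. Capitals mark each CCAAT match, read as its reverse complement ATTGG where it lies on the opposite strand, and, in SREBF2, the TCACNCCAC match. The windows are chr5:43313363-43313662 (minus strand) for HMGCS1, chr4:165327419-165327718 (plus) for MSMO1, chr7:155297628-155297927 (plus) for INSIG1 and chr22:41832855-41833154 (plus) for SREBF2, each printed 5′ to 3′ along its gene.
HMGCS1: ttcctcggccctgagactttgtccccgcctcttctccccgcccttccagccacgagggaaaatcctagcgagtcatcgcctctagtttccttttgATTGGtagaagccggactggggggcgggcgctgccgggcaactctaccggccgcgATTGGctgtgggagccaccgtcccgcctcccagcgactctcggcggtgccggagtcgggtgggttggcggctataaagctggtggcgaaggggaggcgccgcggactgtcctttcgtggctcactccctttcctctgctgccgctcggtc
MSMO1: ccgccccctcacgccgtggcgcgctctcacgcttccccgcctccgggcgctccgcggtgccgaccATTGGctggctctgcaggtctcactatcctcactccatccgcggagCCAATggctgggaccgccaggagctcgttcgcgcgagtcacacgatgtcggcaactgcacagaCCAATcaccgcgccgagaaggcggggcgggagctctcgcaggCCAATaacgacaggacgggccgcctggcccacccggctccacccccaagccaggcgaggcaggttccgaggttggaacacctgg
INSIG1: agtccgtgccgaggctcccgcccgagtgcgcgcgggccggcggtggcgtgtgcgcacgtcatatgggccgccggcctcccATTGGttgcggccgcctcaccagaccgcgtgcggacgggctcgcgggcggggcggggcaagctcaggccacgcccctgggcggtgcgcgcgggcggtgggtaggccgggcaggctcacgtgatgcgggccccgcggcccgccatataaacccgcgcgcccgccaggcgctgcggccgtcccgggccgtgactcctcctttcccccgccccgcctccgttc
SREBF2: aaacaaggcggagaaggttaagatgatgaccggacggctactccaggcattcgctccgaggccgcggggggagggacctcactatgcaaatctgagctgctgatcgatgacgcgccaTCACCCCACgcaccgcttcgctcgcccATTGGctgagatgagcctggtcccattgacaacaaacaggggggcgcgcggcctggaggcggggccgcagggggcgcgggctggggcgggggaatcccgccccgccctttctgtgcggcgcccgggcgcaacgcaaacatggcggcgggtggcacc
HMGCS1 had 2 CCAAT matches, 155 and 100 bases before the start, and MSMO1 had 4, between 185 and 34 bases before it. INSIG1 had 1, at 170 bases. SREBF2 had the TCACNCCAC match at 133 and a CCAAT match at 106 bases before the start. These 2 matches did not overlap, and a match does not show binding.

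The genes that control the pathway were split. INSIG1, which retains SCAP and SREBP in the endoplasmic reticulum and is itself an SREBP target, was at 8.84 FPKM in ATG5 KD cells, against 3.38 in vector cells (1.17). SREBF2, the gene of SREBP-2, was at 48.7 and 30.5 FPKM (0.66), and SREBF1 at 19.3 and 16.1 (0.25). The escort gene SCAP (22.6 FPKM in ATG5 KD cells, 26.03 in vector cells), the protease gene MBTPS1 (40.6 and 48.3) and INSIG2 (7.13 and 7.48) had small differences below 0. STARD4, a sterol carrier that SREBP-2 is known to drive, was at 18.6 FPKM in ATG5 KD cells and 10.5 in vector cells (0.77). The cholesterol exporter gene ABCG1, a target of the sterol-sensing receptor LXR, stood the other way, at 1.77 FPKM in ATG5 KD cells and 3.97 in vector cells (-0.84), while ABCA1 was below 0.5 FPKM in both.

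Fatty acid synthesis genes leaned the same way with smaller differences. Of 18 in the comparison, 14 were above 0, 1 was 2-fold higher and 2 were 1.5-fold higher, against 52%, 0.496% and 1.85% of all genes. The median was 0.31, and 0.19 with both columns scaled to the same sum. SCD, the desaturase that makes oleate, was at 80.6 FPKM in ATG5 KD cells, against 31.7 in vector cells (1.32), and FADS2, a desaturase of polyunsaturated fats, at 91.98 and 51 (0.84). FASN, fatty acid synthase, was at 54.5 and 36.5 FPKM (0.56), and ACACA, which makes its substrate, at 17.7 and 12.3 (0.49).

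Among the 20 genes with the largest positive differences (2-fold higher, at an FPKM of 5 or more and not joined loci), the first places went to NPPB and TNNT2, both known from heart muscle. NPPB, which encodes the precursor of B-type natriuretic peptide, a cardiac hormone, was at 8.13 FPKM in ATG5 KD cells and 0.264 in vector cells (2.85). TNNT2, cardiac troponin T, was at 21.6 and 2.996 FPKM (2.50), and TNNC1, the troponin C of heart and slow muscle, at 41.2 and 12.7 (1.63). The WT libraries were higher still for NPPB (19.8 and 24.9 FPKM) and TNNC1 (85.04 and 161) and were at 22.2 and 34.8 for TNNT2. MYL2, a myosin light chain of heart and slow muscle, was at 31.3 FPKM in ATG5 KD cells and 15.9 in vector cells (0.93), short of 2-fold. Of 40 sarcomere and cardiac genes 12 were in the comparison. Of these 12, 3 were 2-fold higher, against 0.496% of all genes, and the 3 are NPPB, TNNT2 and TNNC1. MYH7, MYBPC3, MYOG and MYOD1 were listed at 0 in both. The cardiac factor genes NKX2-5 (14.1 FPKM in ATG5 KD cells, 17.8 in vector cells) and GATA4 (3.40 and 4.21) did not share the direction, and TNNT1, slow skeletal troponin T, was level at 122.6 and 122. The list's median was 0.11, or 0.47 over its genes at an FPKM of 5 or more, and its summed level was 280.2 FPKM in ATG5 KD cells and 214 in vector cells. The gap between these sums came from NPPB, TNNT2, TNNC1 and MYL2, and 5 of the 12 genes were below 0. CNN1, a calponin of smooth muscle, was at 16.3 FPKM in ATG5 KD cells and 4.98 in vector cells (1.53), but it was the only one of 16 smooth muscle and SRF target genes past 1.5-fold in either direction, and the median of these was -0.099.

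Other genes at least 2-fold higher had varied functions. AOX1, aldehyde oxidase, was at 12.01 FPKM in ATG5 KD cells and 3.51 in vector cells (1.53). QPRT, which feeds quinolinate into NAD synthesis, was at 19.2 and 6.44 (1.44), and PDLIM1, an adaptor on actin fibres, at 26.9 and 9.01 (1.48). ANO2, a chloride channel opened by calcium, was at 10.5 and 3.20 FPKM (1.45), and the X-linked adaptor gene BEX1 at 85.6 and 30.98 (1.44). GSG1, named for germ cells, was at 5.44 and 0.688 FPKM (1.93), with 4.62 and 6.87 in the WT libraries. Several of the 20 were pseudogenes or copies, whose reads may be shared with their parent genes. They were NCOR1P1 (1.92), SFTA1P (1.69), ZNF542P (1.62), TEKT4P2 (1.48), RPL13AP20 (1.35) and RFPL4A (1.52), which has a near-identical neighbour, RFPL4AL1. The long non-coding RNA genes LINC00707 (1.45) and LINC01029 (1.32) completed the 20, with HMGCS1, SQLE and the muscle genes above.

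**Figure D3:**
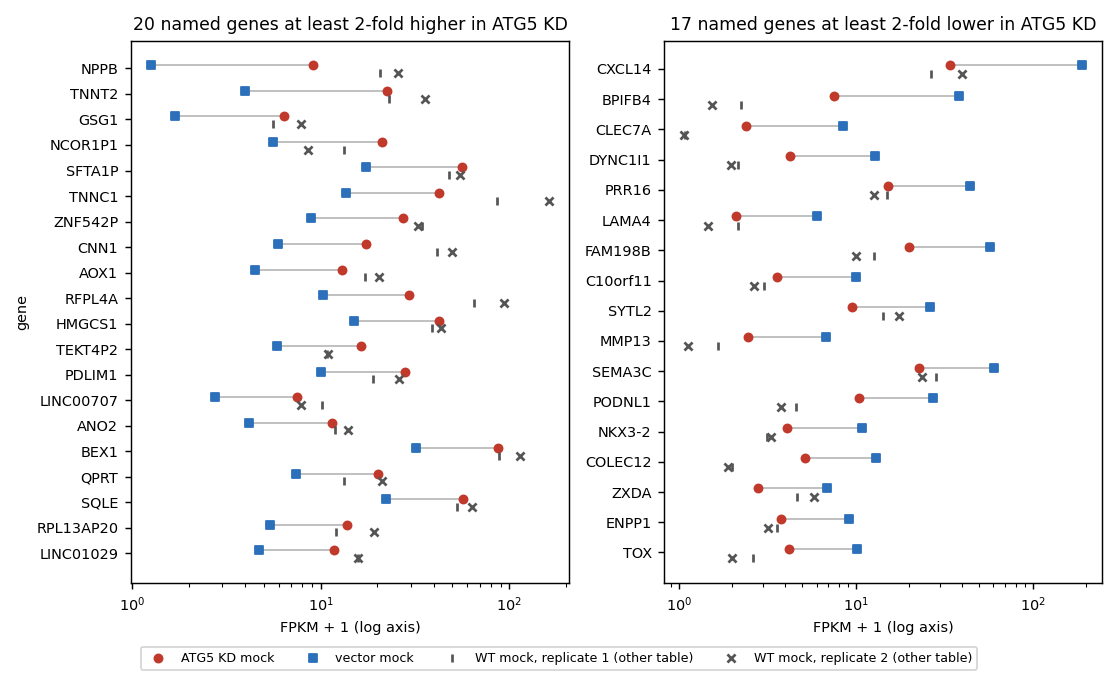
FPKM + 1 (horizontal, log axis) of the 20 higher genes and 17 of the 20 lower genes with the largest differences among genes 2-fold apart and at an FPKM of 5 or more, joined loci left out, in ATG5 KD mock cells (circles), vector mock cells (squares) and the 2 WT mock libraries of the separately normalised table (bars and crosses). In most rows the WT libraries lie on the ATG5 KD side.

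The genes lower in ATG5 KD cells had varied functions, and 43 of the 56 that were 2-fold lower were on none of the gene lists. CXCL14, a chemokine, was at 33.04 FPKM in ATG5 KD cells, against 190.1 in vector cells (-2.49), with 25.7 and 39.05 in the WT libraries. BPIFB4, of the family of lipid-binding BPI proteins, was at 6.53 and 37.3 FPKM (-2.35). CLEC7A, the receptor dectin-1 for fungal glucans, was at 1.40 and 7.51 (-1.83). BPIFB4 and CLEC7A were both below 1.5 FPKM in the WT libraries, so here too the vector value was the one farther above WT. SEMA3C, a secreted guidance protein, was at 21.7 FPKM in ATG5 KD cells and 59.7 in vector cells (-1.42). COLEC12, a scavenger receptor, was at 4.18 and 12.02 FPKM (-1.33). ENPP1, an ecto-enzyme that makes pyrophosphate and limits mineralisation, was at 2.78 and 8.16 (-1.28). DYNC1I1, a subunit of the dynein motor, was at 3.24 FPKM in ATG5 KD cells and 11.9 in vector cells (-1.61). The nuclear factor genes NKX3-2, active in cartilage, and TOX were at 3.10 and 3.20 FPKM in ATG5 KD cells, against 9.78 and 9.12 in vector cells. PRR16 (-1.53), FAM198B (-1.51), C10orf11 (-1.48), SYTL2 (-1.47) and PODNL1 (-1.40) were also on the list of 20, as was ZXDA (-1.28), whose near-identical paralogue ZXDB may share its reads.

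One locus outside the rule for named genes is given because its difference exceeded all others, and it was chosen after its values were seen. The joined locus GABPB1-AS1,MIR4712, an antisense RNA and a miRNA gene, was at 3.53 FPKM in ATG5 KD cells and 148 in vector cells (-5.04). With BIX it was at 3.57 and 3.88, so only the vector mock value stood apart. Whether reads were counted by strand is unknown, so an antisense gene and its partner cannot be told apart. The joined value also does not separate the antisense RNA from the miRNA gene, which is of a class otherwise left out.

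Extracellular matrix genes leaned lower. Of 25 collagen genes, 17 were below 0 and 2 were 2-fold lower, against 48% and 0.448% of all genes. Their median was -0.30, and -0.087 without the filter on low values. COL5A2, a chain that starts fibril assembly, was at 16.2 FPKM in ATG5 KD cells and 36.1 in vector cells (-1.11), and the joined locus COL3A1,MIR3606 was at 19.96 and 41.4 (-1.02). COL6A3 (-0.94), COL6A1 (-0.70) and COL1A1 (-0.75) had smaller differences, and COL4A4 stood above 0 (0.80). Among 35 other matrix genes 29 were below 0, 2 were 2-fold lower and 1 was 2-fold higher, with a median of -0.25. The lower ones were LAMA4 and LUM. LAMA4, a laminin chain of basement membranes, was at 1.10 FPKM in ATG5 KD cells and 5.01 in vector cells (-1.51), and LUM, which spaces collagen fibrils, at 5.82 and 13.4 (-1.08). FN1, fibronectin, was at 203 and 332 FPKM (-0.70). The higher one was MATN2, at 18.03 FPKM in ATG5 KD cells and 8.49 in vector cells (1.00). Of 20 genes of matrix proteases and their inhibitors 13 were below 0 and 2 were 2-fold lower, with a median of -0.087. Of these 2, the gelatinase gene MMP2 was at 107 and 237 FPKM (-1.13) and the collagenase gene MMP13 at 1.47 and 5.76 (-1.45). The inhibitor gene TIMP3 was at 19.8 and 35.8 (-0.82). The share of matrix genes whose WT mean lay nearer to ATG5 KD, 15 of 23 collagen genes and 20 of 33 others, was close to the 65.6% of all genes.

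Signalling lists that shape bone and connective tissue leaned the same way, with no gene of the 4 lists below 2-fold apart. Wnt genes had a median of -0.37, with 18 of 21 below 0 and 6 at least 1.5-fold lower, against 2.07% of all genes past that fold. The Wnt antagonist SFRP1 was at 12 FPKM in ATG5 KD cells and 24.5 in vector cells (-0.97), and NOTUM, an enzyme that inactivates Wnt proteins, at 9.90 and 19.2 (-0.89). The effector LEF1 was at 7.71 and 13.4 (-0.72), and the joined locus AXIN2,CEP112, which holds a common Wnt target, at 10.1 and 15.01 (-0.53). TGF-beta and BMP genes had a median of -0.24, with 26 of 31 below 0 and 4 at least 1.5-fold lower. Their targets ID4 (9.72 FPKM in ATG5 KD cells, 18.8 in vector cells), ID3 (155 and 237) and SMAD6 (10.1 and 18.2) were among these 4. Of 11 Notch genes 9 were below 0, with a median of -0.27 (-0.10 without the filter on low values), and none was 1.5-fold apart. All 8 entries of clustered protocadherins, cell adhesion genes, were below 0, with a median of -0.44 (-0.16 without the filter on low values). The 1 entry past 1.5-fold was the joined locus PCDHB11,PCDHB12,PCDHB16,PCDHB5,PCDHB7, at 13.2 FPKM in ATG5 KD cells and 23.03 in vector cells, while PCDHB10 was at 0.89 and 1.66. With joined loci left out the median was -0.27. RUNX2, the master regulator of osteoblasts, was at 10.5 FPKM in ATG5 KD cells, against 18.1 in vector cells (-0.73), and the WT libraries held 5.50 and 4.85.

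Of 29 growth factor genes 20 were below 0, with a median of -0.21 (-0.027 without the filter on low values). The joined locus IGF2,INS,INS-IGF2 was at 25.1 FPKM in ATG5 KD cells and 46.4 in vector cells, and IGFBP5, which binds insulin-like growth factors, at 65.3 and 119 (-0.86). FGF1 stood above 0 (9.48 and 5.05 FPKM, 0.79). In the list of NF-kappaB and inflammatory genes, CCL2, a chemokine for monocytes, was 2-fold higher (6.45 FPKM in ATG5 KD cells, 2.48 in vector cells) and CXCL14 was 2-fold lower. That is 1 of 20 genes each way, against 0.496% and 0.448% of all genes. The list's median was -0.10, or 0.031 over its genes at an FPKM of 5 or more. The cystine transporter gene SLC7A11, a target of ATF4 and NRF2, was at 5.70 and 13.1 FPKM (-1.07), although 24 of 31 ATF4 target genes were above 0. Of 12 epithelial genes 6 were in the comparison, 5 of them above 0. The keratin gene KRT18 was at 350.1 FPKM in ATG5 KD cells and 213 in vector cells (0.71) and KRT8 at 486 and 383 (0.34), whereas the joined locus KRT14,KRT16,KRT19 was at 11.7 and 18.8 (-0.64). The junction gene CLDN4 was at 7.06 FPKM in ATG5 KD cells and 6.65 in vector cells and the adhesion gene EPCAM at 3.16 and 2.48. The adhesion gene CDH1 was at 0.324 and 0.157, and CLDN3, ESRP1, GRHL2, OVOL1 and KRT5 were below 0.5 FPKM in both. The summed level of the 12 epithelial genes was 864 FPKM in ATG5 KD cells and 627 in vector cells. KRT8 and KRT18 made up most of both sums and the whole gap between them, so the sums do not describe the other members.

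Lists of highly expressed genes had small positive medians. Ribosomal protein genes had a median of 0.28, with 82 of 86 above 0, mitosis genes 0.27 (33 of 34), heat shock genes 0.24 (14 of 14), proteasome genes 0.23 (30 of 31) and respiratory chain genes 0.17 (72 of 78). Of all genes 52% were above 0, and this share was larger at higher levels. It was 66.7% between 32 and 128 FPKM, 70.4% between 128 and 512, and 89.0% at 512 or more. At least 1.5-fold higher were 1 of 86 ribosomal, 1 of 34 mitosis and 1 of 14 heat shock genes, against 1.85% of all genes. The proteasome and respiratory chain lists had none. At least 2-fold lower was 1 of the 86 ribosomal genes and no gene of the other lists, against 0.448% of all genes. The higher ones were the ribosomal gene RPL21, at 1194 FPKM in ATG5 KD cells and 791 in vector cells, the mitotic survivin gene BIRC5, at 92.6 and 59.3, and the small heat shock gene CRYAB, at 133 and 74.6. Over all genes the median difference was larger at higher levels. It was -0.062 for genes with a mean FPKM under 2, -0.035 between 2 and 8, 0.020 between 8 and 32, 0.083 between 32 and 128, 0.11 between 128 and 512, and 0.26 for the 118 genes at 512 or more. The median level of the ribosomal list was 769 FPKM. The 118 genes at 512 or more therefore include many of its 86 genes, and their median and share above 0 are no separate background for that list. The part of level in these medians and counts was not tested. With both columns scaled to the same sum the medians were 0.16, 0.15, 0.12, 0.11 and 0.043, in the order given.

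**Figure D4:**
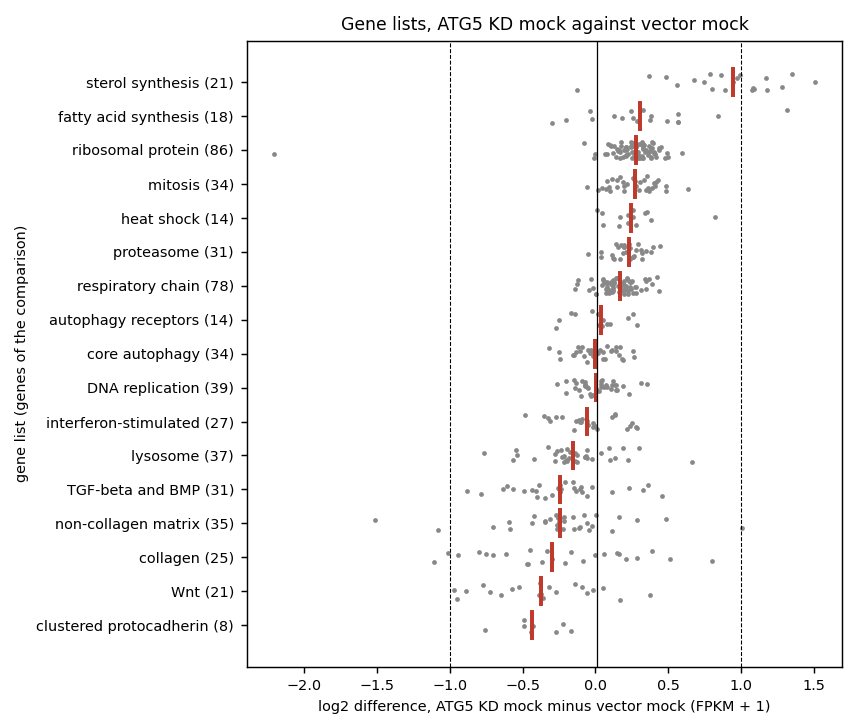
Log2 difference of FPKM + 1, ATG5 KD mock minus vector mock (horizontal), for every gene of 17 lists, with the number of genes of each list in the comparison in brackets; red bars are list medians, the solid line is the median of all genes and the dashed lines mark 2-fold. Sterol synthesis stands at 0.94, and the other medians lie between -0.44 and 0.31.

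Several programmes showed little difference. DNA replication genes had a median of 0.0051 (39 genes, none 1.5-fold apart), although mitosis genes stood at 0.27. Interferon-stimulated genes had a median of -0.059 over 27 genes. None was 1.5-fold apart, and 18 were below 0, against 48% of all genes. IFI44 was at 12.4 FPKM in ATG5 KD cells and 16.1 in vector cells. Genes that write, read or erase H3K9 methylation had a median of 0.021 over 20 genes, with none 1.5-fold apart, EHMT1 at 8.96 and 10.4 FPKM and SETDB1 at 9.28 and 10.04. Zinc finger genes leaned lower by a small amount, with a median of -0.054 and 261 of 391 below 0, against 48% of all genes. Of the 391, 2 were 2-fold higher, ZNF542P and ZNF283, against 0.496% of all genes.

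Further lists stood near the median of all genes or modestly off it. Antigen presentation genes of MHC class I had a median of 0.074 over 15 genes. Of these, 1 was 2-fold lower and none 1.5-fold higher, against 0.448% and 1.85% of all genes. The peptide transporter gene TAP2 was at 15.7 FPKM in ATG5 KD cells and 12.7 in vector cells. Among long intergenic RNA genes, 123 in number with a median of -0.031, 3 were 2-fold higher and 2 were 2-fold lower, against 0.496% and 0.448% of all genes. The lower ones were LINC00662, at 8.75 FPKM in ATG5 KD cells and 21.2 in vector cells (-1.19), and LINC00982, at 0.238 and 2.09 (-1.32). Immediate early genes, which respond first to stimuli, had a median of -0.10, with 16 of 24 below 0. KLF2, a zinc finger factor best known from endothelium, was at 12.7 FPKM in ATG5 KD cells and 23.4 in vector cells (-0.83), while the stress factor gene ATF3 was at 6.84 and 3.63 (0.76). Genes of protein folding in the endoplasmic reticulum had a median of 0.11 and p53 targets 0.074, with none of 26 and none of 25 1.5-fold apart. With both columns scaled to the same sum the medians of these 2 lists and of the antigen presentation list were below 0, at -0.0074, -0.046 and -0.018, where that of all genes was -0.098. The chaperone gene HSPA5 was at 228 FPKM in ATG5 KD cells and 189.6 in vector cells, and the p53 antagonist gene MDM2 at 24.7 and 20.4.

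The BIX-treated pair shares no sample with the mock pair, although both come from the same 2 lines. Over the 11860 genes in both comparisons, which are not independent replicates, the differences correlated at r = 0.68. Of the 62 genes higher in mock, all 62 were above 0 with BIX, as were 53.8% of all genes of that pair, and 34 (54.8%) were 2-fold higher there. Of the 56 lower in mock, 53 were below 0 with BIX, as were 46.2% of all genes, and 25 (44.6%) were 2-fold lower. Of the same 56, 1 was at least 2-fold higher with BIX. In the BIX pair as a whole, 170 of 12259 genes (1.39%) were 2-fold higher and 56 (0.457%) 2-fold lower. TNNT2 was at 14.99 FPKM in ATG5 KD cells with BIX and 1.65 in vector cells with BIX, CNN1 at 67.3 and 15.3, and CXCL14 at 12.2 and 79.7. The sterol synthesis median was 0.83 with BIX, and HMGCS1 was at 161 and 33.8 FPKM there. Differences of NKX3-2 (-1.40 in mock and -0.36 with BIX) and ANO2 (1.45 and 0.32) were smaller with BIX. Whether any gene's difference itself differed between mock and BIX was not tested, as there is 1 value per group.

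**Figure D5:**
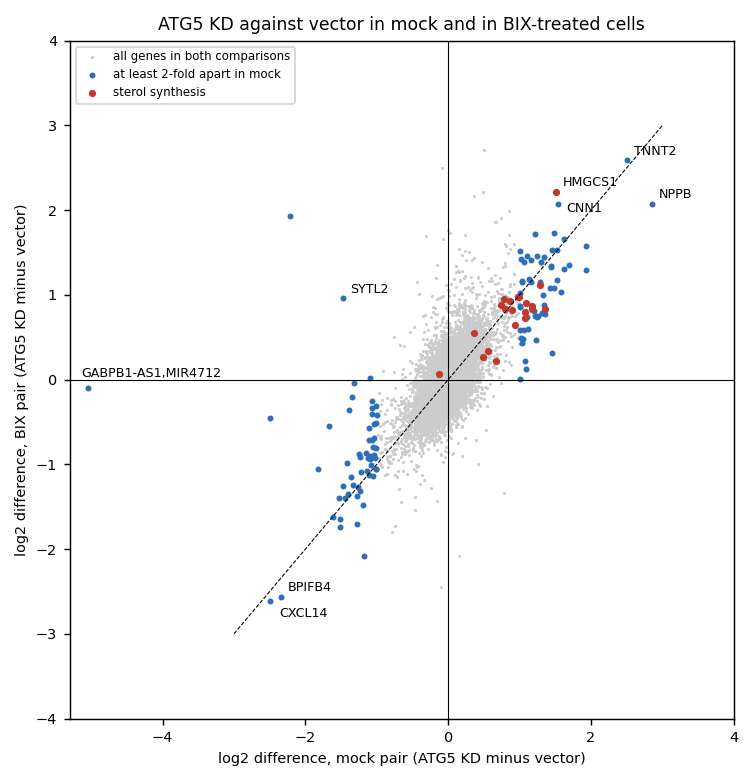
Log2 difference of FPKM + 1, ATG5 KD minus vector, in BIX-treated cells (vertical) against mock cells (horizontal) for the 11860 genes in both comparisons, with genes 2-fold apart in mock in blue and sterol synthesis genes in red; the dashed line marks equal differences. Nearly all blue points have the same sign in both pairs, with SYTL2 among the exceptions.

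The position of the WT libraries was similar for the called genes at large. Of the 58 genes 2-fold higher in ATG5 KD cells with a WT value, the WT mean lay nearer to ATG5 KD for 50 (86.2%). Their median signed log2 difference from WT was -0.087 for ATG5 KD and -1.40 for vector. Among 55 genes 2-fold lower with a WT value, the WT mean lay nearer to ATG5 KD for 51 (92.7%). The median signed differences were 0.25 for ATG5 KD and 1.48 for vector. Over all 11553 genes the median signed differences were -0.080 for ATG5 KD and -0.084 for vector. Positive and negative differences cancel in these medians, so they do not give how far each value lay from WT. The WT mean lay nearer to ATG5 KD for 65.6% of these genes. For most called genes the vector value was thus the one farther from WT. Which feature of the 2 lines goes with this cannot be told apart here, because each line is 1 pooled value and the WT libraries belong to another table.

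At the limit of the comparison, IGFL1 (0.519 FPKM in ATG5 KD cells, 0.999 in vector cells) lay just outside it and HIST1H2BL (0.843 and 1.00) just inside.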

How the data were processed

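Poly(A) RNA of U2OS cells was sequenced from TruSeq libraries, read from both ends, per the labels' protocols. Per the submitters' processing notes, the authors used FastQC, cutadapt, TopHat2 and Cufflinks and named hg19 and GRCh37 for human reads; the sources used here give no versions, options or strandedness. The deposited FPKM values, which the authors normalised for gene length and library size, were used as they stood, and 1 value per group was held. Read depth is therefore unknown, and no interval or count test could be made.

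Of 25848 entries, 2088 repeated a symbol and were dropped in favour of its entry with the higher mean level, which left 23760 genes. Loci that join several symbols (1396) were kept as 1 gene each, and 1756 short non-coding RNA genes were left out by name. Genes that reached an FPKM of 1 on either side were compared as log2(FPKM + 1), so differences of low genes are understated. Named genes were the 20 in each direction with the largest difference among those 2-fold apart and at an FPKM of 5 or more, short or joined entries left out; ATG5; all sterol synthesis genes; up to 4 members with the largest difference from each of 48 lists; and known controllers of a list. Some genes that the rule selects are not reported here. The members and lists were chosen with earlier results of these data known. Lists are described by counts and medians beside those of all genes. Python 3.11.15, pandas 2.3.3, numpy 2.4.6 and matplotlib 3.10.9 were used, and the comparison code was tested on simulated data. Alternatives covered the pseudocount, the filter, the fold, centring, joined loci and short RNAs.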

Additional observations from a re-analysis of the deposited data

Results flagged for a closer look

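Among 221 named genes, 1, SYTL2, had differences of at least 0.5 on the log2 scale in opposite directions in the mock and the BIX pair. Outside the named genes, 1 of the 56 genes lower in mock was at least 2-fold higher with BIX. The difference between the pairs was not tested. SYTL2, which encodes a synaptotagmin-like protein of vesicle transport, was at 8.55 FPKM in ATG5 KD cells and 25.4 in vector cells in mock (-1.47). With BIX it was at 12.1 and 5.74 FPKM (0.96), and the WT mock libraries held 13.3 and 16.5.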

How the results depend on the processing

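The counts of genes 2-fold apart depended on the pseudocount and the fold. A pseudocount of 0.1 gave 134 higher and 132 lower genes in ATG5 KD cells, and a threshold of 1.5-fold gave 231 higher and 258 lower, against 62 and 56. Under a pseudocount of 0.5, no filter, a filter of FPKM 5, centring on the median, joined loci left out or short non-coding RNAs kept, the counts ranged from 44 to 91 higher and from 41 to 81 lower. Scaling both columns to the same sum, added after seeing the data, gave 43 and 79. Leaving out loci joined with a short non-coding RNA, also added then, gave 62 and 54. The sterol synthesis median ranged from 0.84 to 1.02. For named genes, 1890 recomputed differences moved by less than the SD between the WT libraries, 37 moved by more, and none past 2-fold changed sign. For the other list medians these counts were 416 and 5. That SD, 0.231, is a spread of single genes and is larger than many list medians, so these counts cannot show that a median held. Counted as unmoved were the collagen median, -0.30 and -0.087 without the filter, and the endoplasmic reticulum folding median, 0.11 and -0.0074 with columns scaled to the same sum. No paired analysis was possible because each group is 1 pooled value with no replicate numbers, and no replicate could be left out for the same reason. Depth is not given, so differences of genes near an FPKM of 1 cannot be weighed against counting error.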
